A study of Mus musculus with 14 samples.

Results

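Most H3K27ac peaks at mouse gene starts lie on GC-rich DNA, and a small set does not. The regions described here are the E14 H3K27ac peaks whose midpoint lay within 1000 bp of the transcription start site (TSS) of a protein-coding transcript on chromosomes 1 to 19 and whose DNA held under 50% G and C. There were 260 of them among 9683 promoter peaks (2.69%, 95% Wilson interval 2.38 to 3.03%) and 13463 peaks in all, and they were assigned to 257 genes by the nearest TSS. They are called low-GC promoter peaks below, and the 9423 promoter peaks of 50% GC or more are called high-GC promoter peaks. The series profiled chromatin accessibility, RNA and H3K27ac in retinal cells of CD1 mice at embryonic day 14 and post-natal day 2, with and without loss of the transcription factor Lhx2, in 14 samples. Only the E14 H3K27AC ChIP-seq, whose labels name no Lhx2 genotype of its own, is described here. The labels name retinal progenitor cells, whereas the study's methods describe chromatin from whole dissected retinas, in which progenitors, newborn neurons and minor cell types are mixed, so fewer cells with the mark and less mark per cell cannot be told apart. The peak list was called once on 2 pooled replicate libraries against 1 isotype control library. It therefore holds no replicates and no value below has a replicate error, no test between conditions was possible, and all intervals cover only the spread over peaks or the counting error of shares.

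Acetylation of lysine 27 of histone H3 is laid down by acetyltransferases such as CBP and marks active promoters and enhancers. Most promoters of widely expressed vertebrate genes lie in CpG islands, stretches that are rich in G, C and the dinucleotide CpG because they escape DNA methylation. Promoters outside islands have lost most of their CpGs and are known for genes that are used in few tissues, although some housekeeping promoters are also AT-rich. In the retina of this age, dividing progenitors give rise to ganglion, horizontal, amacrine and cone cells.

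DNA just upstream of the members that stood at the ends of the set is shown because it differs widely in composition, also from the peak it belongs to. Of the members with the highest pileup, the highest fold enrichment or the lowest GC content, 8 had no annotated exon in the 150 bases before the TSS. These bases are given 5′ to 3′ on the strand of the gene, with every CpG in capitals (mm9). The first 4 belong to members with a high pileup or fold enrichment and the last 4 to members with a GC content under 40%.
Arid5b: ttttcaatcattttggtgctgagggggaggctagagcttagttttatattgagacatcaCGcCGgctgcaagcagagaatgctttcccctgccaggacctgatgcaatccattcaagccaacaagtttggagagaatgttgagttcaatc
Rps26: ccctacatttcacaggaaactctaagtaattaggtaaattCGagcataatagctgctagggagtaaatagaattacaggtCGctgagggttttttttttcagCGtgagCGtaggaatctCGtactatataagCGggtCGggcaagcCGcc
Rpl4: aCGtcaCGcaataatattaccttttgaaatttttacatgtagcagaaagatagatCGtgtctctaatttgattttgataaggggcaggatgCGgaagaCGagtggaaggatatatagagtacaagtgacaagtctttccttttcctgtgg
Ank2: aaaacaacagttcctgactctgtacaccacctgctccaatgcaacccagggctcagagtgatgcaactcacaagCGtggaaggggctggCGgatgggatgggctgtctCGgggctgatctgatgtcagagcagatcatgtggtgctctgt
Tfdp2: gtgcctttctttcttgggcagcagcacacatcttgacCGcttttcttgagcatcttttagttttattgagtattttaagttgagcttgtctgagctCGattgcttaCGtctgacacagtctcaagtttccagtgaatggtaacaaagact
Gpx8: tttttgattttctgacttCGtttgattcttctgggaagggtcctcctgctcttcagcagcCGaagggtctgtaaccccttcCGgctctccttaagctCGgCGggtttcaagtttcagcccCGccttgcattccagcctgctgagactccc
Mtus1: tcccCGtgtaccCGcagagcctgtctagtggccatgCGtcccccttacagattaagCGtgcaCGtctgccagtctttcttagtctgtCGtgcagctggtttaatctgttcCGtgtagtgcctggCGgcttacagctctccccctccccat
Gpm6a: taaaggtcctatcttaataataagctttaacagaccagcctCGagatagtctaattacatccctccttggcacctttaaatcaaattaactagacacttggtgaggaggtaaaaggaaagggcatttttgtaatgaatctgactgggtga
The stretches lay at chr10:67741475-67741624 (Arid5b), chr10:128063563-128063712 (Rps26), chr9:64021044-64021193 (Rpl4), chr3:127111950-127112099 (Ank2), chr9:96159522-96159671 (Tfdp2), chr13:113836597-113836746 (Gpx8), chr8:42140149-42140298 (Mtus1) and chr8:56039931-56040080 (Gpm6a). Those of Tfdp2 and Mtus1 were intronic, upstream of an internal TSS of the gene, that of Gpx8 lay in an intron of Cdc20b, beyond the end of its peak, and the others lay outside protein-coding transcripts. Rps26, a protein of the small ribosomal subunit, had 8 CpGs in 150 bases at 44.0% GC, and Rpl4, of the large subunit, had 5 at 38.0% GC. Gpm6a, a neuronal membrane glycoprotein, had the same GC content as Rpl4 but only 1 CpG. Tfdp2, a partner of E2F factors, had 3 CpGs at 41.3% GC. The stretches of Ank2 (55.3%), Gpx8 (54.0%) and Mtus1 (57.3%) had over 50% GC, although the whole peaks had less.

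Low-GC promoter peaks were similar to the others in median length but held less signal. Their median length was 1066.5 bp (95% interval of the median 988 to 1160), against 1081 bp (1065 to 1096) for high-GC promoter peaks. Pileup is the number of ChIP fragments over each base, averaged over the peak after the authors scaled the ChIP library down to the control library. Its median was 12.1 (11.8 to 12.8) in low-GC peaks and 16.7 (16.6 to 16.8) in high-GC peaks, a ratio of 0.729 or -0.46 on the log2 scale. Of the 260 members, 239 (91.9%) were under the high-GC median, 175 were under the lower quartile of the high-GC peaks (13.8) and only 2, Arid5b and Rps26, were above the upper quartile (19.6). The lowest member had a pileup of 6.97, at 3110035E14Rik, a gene without a descriptive name.

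Fold enrichment, the height of the ChIP signal relative to the control around it, differed less. The median was 4.27 (4.15 to 4.54) in low-GC peaks and 4.75 (4.72 to 4.78) in high-GC peaks, a ratio of 0.898, and 167 of 260 members were under the high-GC median. The control level implied by pileup and fold enrichment was lower too, with a median of 1.89 (1.81 to 2.01) against 2.58 (2.55 to 2.60), a ratio of 0.734 that was close to the pileup ratio. The control cannot fall under the genome-wide average of 1.07 fragments per base that MACS2 uses as a floor, and 15 members (5.77%) and 1.81% of high-GC peaks were within 10% of that floor. The part that base composition plays in sequencing coverage was not tested. At stricter limits (fold enrichment of at least 4 and q of at most 0.001), 148 of 260 low-GC peaks remained (56.9%, 50.8 to 62.8%), beside 74.6% of all promoter peaks and 75.1% (74.2 to 75.9%) of high-GC promoter peaks.

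**Figure D1:**
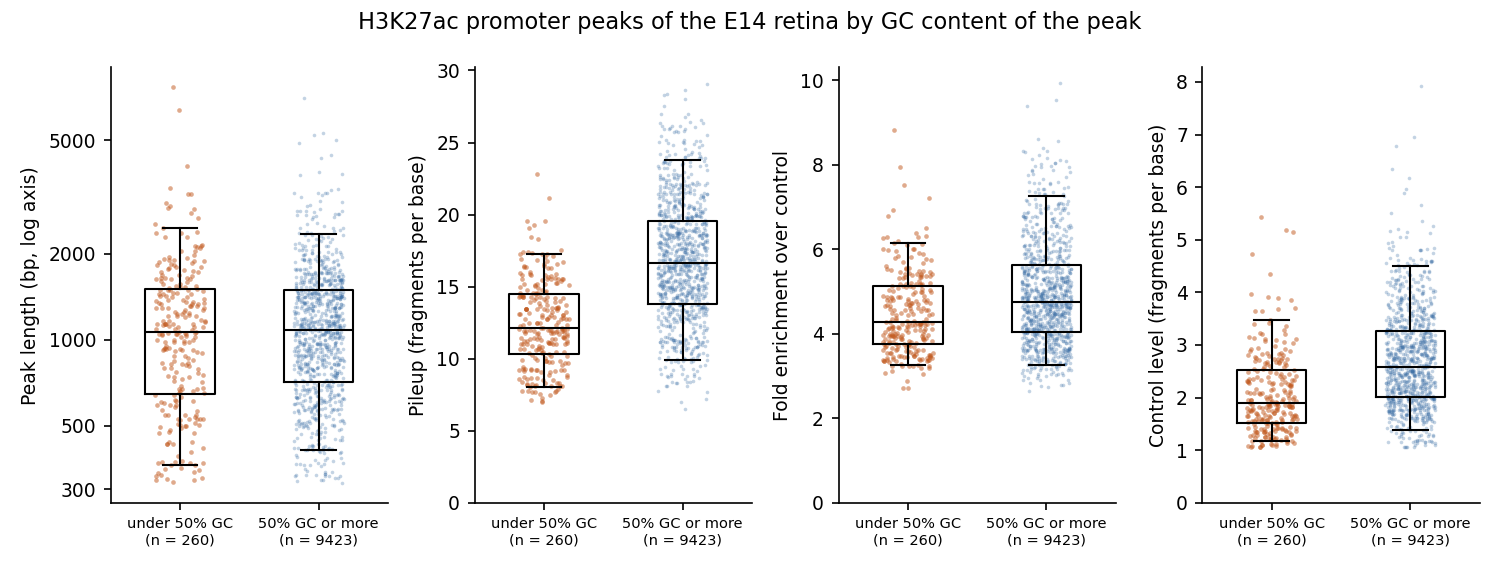
Length (bp, log axis), pileup, fold enrichment and implied control level of promoter peaks under 50% GC (n = 260, all shown as points) and of 50% GC or more (n = 9423, a random 1000 shown as points). Boxes span the quartiles with the median as a line, and whiskers reach the 5th and 95th percentiles. The lengths overlap almost fully, whereas the median pileup is 12.1 against 16.7.

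The lower pileup was part of a gradient over all promoter peaks rather than a step at 50% GC. The median was 10.7 (9.79 to 11.2) in the 49 peaks under 45% GC, 12.8 (12.1 to 13.4) in the 211 from 45 to 50%, 14.3 (14.0 to 14.6) from 50 to 55% and 16.1 (15.9 to 16.3) from 55 to 60%. It reached 18.1 (17.9 to 18.4) from 65 to 70% and was 16.9 (16.4 to 17.3) in peaks of 70% GC or more. Length took a different course, with medians of 882 bp (643 to 1270) under 45%, 1106 bp from 45 to 50%, 1176 bp from 50 to 55% and 741 bp (718 to 779) at 70% or more. The high-GC peaks, whose median length was close to that of the members, thus held both the longest and the shortest of these classes.

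**Figure D2:**
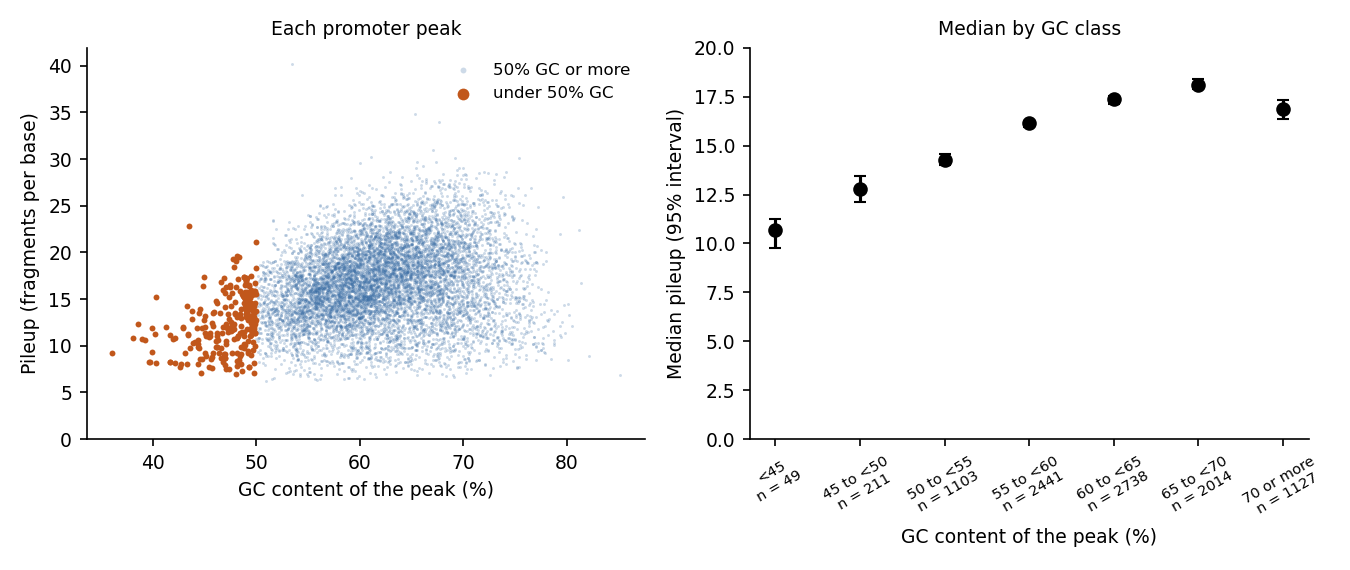
Left, pileup (fragments per base) against GC content (%) for each promoter peak, with the 260 under 50% GC in orange. Right, median pileup with its 95% interval in 7 GC classes, which climbs from 10.7 under 45% GC to 18.1 at 65 to 70% and is 16.9 at 70% or more.

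The difference in pileup was present in peaks of every length class. The ratio of medians was 0.858 in peaks under 500 bp (36 low-GC members), 0.717 from 500 to 1000 bp (79), 0.764 from 1000 to 1500 bp (79), 0.728 from 1500 to 2500 bp (53) and 0.815 in longer ones (13). For fold enrichment the ratio was 1.01 in the shortest class and 0.873 to 0.953 in the others. Low-GC promoter peaks also had a higher median pileup than AT-rich peaks away from gene starts, which may lie within genes. The 860 peaks under 50% GC that lay over 5000 bp from a protein-coding TSS had a median pileup of 8.55 (8.46 to 8.76) and a median fold enrichment of 3.78 (3.74 to 3.81) at a median length of 1002.5 bp. Their GC content was 46.2% at the median, against 48.1% in the low-GC promoter peaks, and their CpG observed over expected ratio (the count of CpG over that of a random order of the same bases) was 0.28 against 0.574. In high-GC promoter peaks this ratio was 0.763.

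Members with and without a CpG island window differed in pileup and length. A CpG island window, any 200 bp of the peak with at least 50% GC and a CpG ratio of at least 0.6, was found in 192 of 260 members (73.8%, 68.2 to 78.8%) and in 97.9% (97.6 to 98.1%) of high-GC peaks. With windows of 500 bp, 55% GC and a ratio of 0.65, the share of members was 34.6%. Members with the 200 bp window had a median pileup of 13.1 (12.7 to 13.7), a median length of 1161 bp and 67.7% at the stricter limits. The 68 without it had a median pileup of 9.97 (9.22 to 11.02), a median length of 647 bp and 26.5% (17.5 to 38.0%) at the stricter limits. High-GC promoter peaks without an island window (n = 200) had a median pileup of 10.8 (10.1 to 11.5) and a fold enrichment of 3.70 (3.64 to 3.79), and the intervals of both overlapped those of the members without a window (fold enrichment 3.84, 3.64 to 4.05). With a window, the high-GC median was 16.8 (16.7 to 16.9), above the interval of the members. The window has the same 50% GC limit that the members were chosen to fall below, so the rule partly fixes the difference in share from the high-GC peaks. Members with a window also had more GC (median 48.7% against 45.4%), and a longer peak has more positions at which a window can be found. The part of GC content and length in these values was not tested. Over the 260 members, Spearman's rho of pileup was 0.52 with the CpG ratio, 0.38 with GC content and 0.33 with length, as a description of peaks that come from the same pooled libraries.

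Individual members ranged widely. The 5 with the highest pileup were Arid5b (22.9), Rps26 (21.2), Rpl4 (19.6), 1110008L16Rik (19.5) and Ufc1 (19.3). Arid5b encodes an AT-rich DNA-binding protein, and its peak at chr10:67741544-67741920 was only 377 bp long, with a fold enrichment of 3.86 over a control level of 5.18. The 1110008L16Rik peak (chr12:56402979-56404267) also had a high control level, 5.42, and a fold enrichment of 3.20. Both thus combined the largest pileups with fold enrichments under the median of the members. Ufc1, the E2 enzyme of the ubiquitin-like modifier UFM1, had a control level of 1.55 and a fold enrichment of 7.94 (chr1:173224157-173225404).

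The 5 highest fold enrichments belonged to Tia1 (8.81), Ufc1 (7.94), Ank2 (7.51), Coq7 (7.21) and Rps27 (6.93). Tia1 encodes an RNA-binding protein of stress granules, Ank2 an ankyrin that anchors membrane proteins, Coq7 an enzyme of ubiquinone synthesis and Rps27 a ribosomal protein. Their pileups of 14.7 to 19.3 were above the median of the members, over control levels of 1.09 to 1.55. The Tia1 peak spanned 1917 bp at chr6:86354152-86356068.

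The longest members were Zfp608 (7649 bp), 2810030E01Rik (6387 bp), Tuba1a (4052 bp), Pik3r3 (3392 bp) and Epc1 (3249 bp). Tuba1a encodes the alpha-tubulin of newborn neurons, and its peak lay at chr15:98781804-98785855 with a pileup of 14.8 and a fold enrichment of 5.18. Pik3r3 encodes a regulatory subunit of phosphoinositide 3-kinase, and its pileup was 16.6. In all, 7 members were longer than 3000 bp and 36 were shorter than 500 bp.

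The lowest GC contents were those of Tfdp2 (36.0%), Gpx8 (38.0%), Mtus1 (38.6%), Fndc3a (39.0%) and Gpm6a (39.3%). The pileups of these 5 were 9.22, 10.8, 12.4, 10.7 and 10.6, and all but that of Mtus1 were under the median of the members. Fold enrichments were 4.89 for Tfdp2, 3.07 for Gpx8, 5.35 for Mtus1, 5.53 for Fndc3a and 4.04 for Gpm6a, so 3 of the 5 were above the median of high-GC peaks. The 3 peaks nearest to the 50% limit on each side overlapped in pileup, but they are too few to tell whether there was a step. Just inside the limit were Psmb1 (49.98% GC, pileup 18.3), Hist2h4 (49.96%, 13.7) and Dynlt1f (49.96%, 15.5), and just outside, at 50% exactly, were Zfp960 (12.8), Hist4h4 (21.2) and Mettl14 (13.4).

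Low-GC promoter peaks lay more often at alternative starts within a gene. The nearest TSS was more than 1000 bp from the first protein-coding TSS of its gene in 62 of 260 members (23.8%, 19.1 to 29.4%) and in 773 high-GC peaks (8.20%, 7.67 to 8.77%). The first TSS was a median of 50126 bp away in these 62. They had a median pileup of 11.02 (9.82 to 11.8) and a median CpG ratio of 0.417 (0.363 to 0.445), against 13.0 (12.3 to 13.5) and 0.631 (0.596 to 0.659) in the 198 members at a first TSS. The genes around internal members were long, with a median span of 136400 bp against 20982 bp for the others. The definition partly fixes this difference, since an internal TSS needs a gene of more than 1000 bp. High-GC peaks at an internal TSS had a median pileup of 15.4 (15.04 to 15.9) and lay in genes with a median span of 53419 bp.

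For 44 members, 35 of them internal, the same gene also had a high-GC promoter peak at another TSS, a median of 39580 bp away. In 40 of these 44 the low-GC peak had the lower pileup, with medians of 10.9 and 18.2. The share is close to the 91.9% of all members (239 of 260) that lay under the median of the high-GC peaks, so it does not set these genes apart. Nfyc, a subunit of the CCAAT-binding factor NF-Y, had 8.27 at its low-GC peak (chr4:120487382-120488672) and 25.2 at the other. Rbfox2, a splicing regulator of neurons and muscle, had 11.01 (chr15:76982971-76984181) and 24.99, and Jarid2, a cofactor of Polycomb repressive complex 2, had 10.6 (chr13:44935599-44935963) and 21.1. Tfdp2, whose low-GC peak had the lowest GC content of the members, had 9.22 against 19.1. Crem, a factor that binds cyclic AMP response elements, had 8.90 against 22.3. The neuronal RNA-binding protein genes Elavl4 (7.10 against 18.7) and Elavl2 (7.48 against 10.3) had some of the weakest members. The order was the opposite in 4, among them Chd9 (17.3 against 11.6), Mtus1 (12.4 against 9.46) and Fgf14 (10.2 against 7.76).

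**Figure D3:**
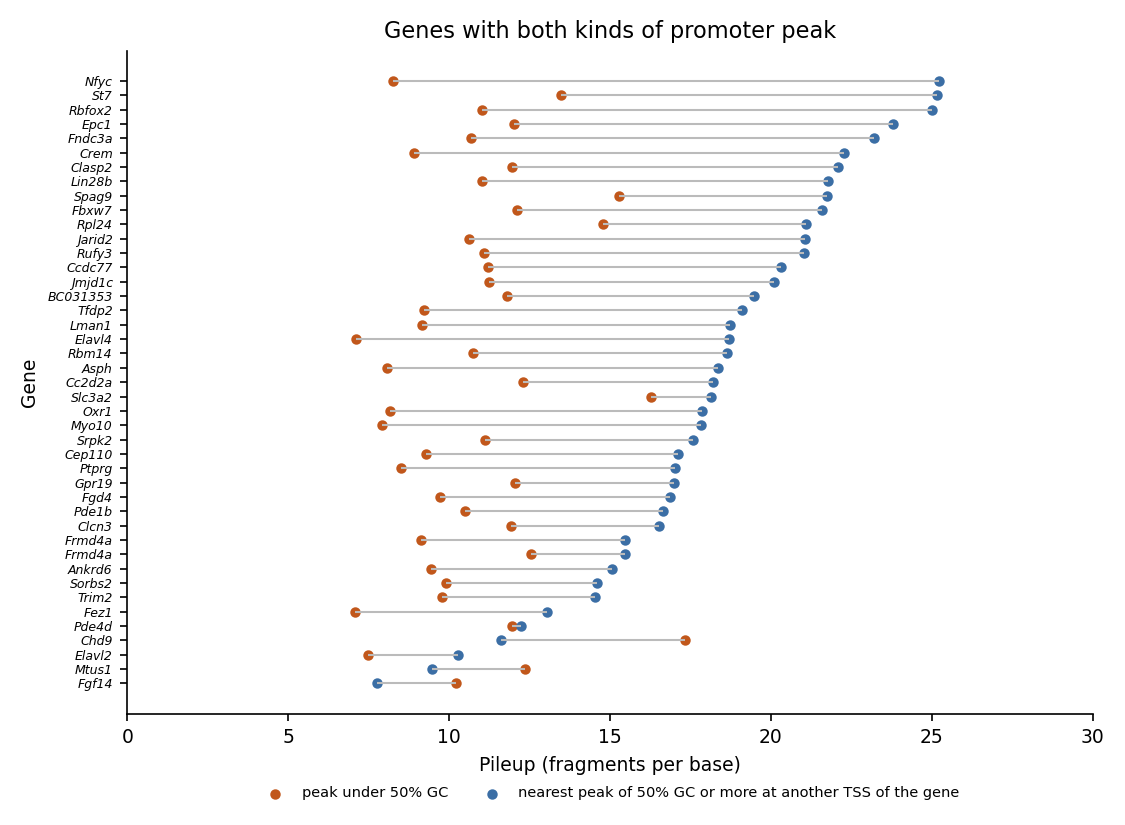
Pileup (fragments per base) at 43 of the 44 low-GC promoter peaks whose gene had a high-GC promoter peak at another TSS, with both peaks of a gene joined by a line. The high-GC peak is the nearest where a gene has several. The low-GC peak lies to the left in 40 of the 43 pairs plotted.

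Histone genes had the highest share of low-GC peaks of the gene lists compared. Replication-dependent histone genes are small, have no introns and lie in clusters. A promoter peak was found at 59 of 67 annotated genes, and 15 of the 59 (25.4%, 16.1 to 37.8%) had a low-GC peak, compared with 290 of 10479 genes with a promoter peak in all (2.77%), counting every gene with a TSS within 1000 bp of a peak's midpoint. Several genes shared a peak, so the 15 genes had 10 peaks. These were long (median 2202 bp) and even in pileup, from 13.5 at Hist1h4c to 17.4 at Hist1h2ad (chr13:23665510-23668283), with a median of 15.4. The 27 high-GC peaks at histone genes had a median pileup of 17.6 and a median fold enrichment of 4.35, against 4.82 in the low-GC peaks. All 10 were near their limit in composition, from 46.6 to 49.96% GC, and 8 met the stricter limits. The main cluster on chromosome 13 held 4 of them at chr13:23622074-23668283 and 3 at chr13:23775110-23839866. These genes have near-identical copies, and up to 12.8% of the 150-base words of a histone member, that of Hist1h3i, were also in another. The tag size in the file header was 150 bases, and tags within such words could not be placed uniquely.

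Cytosolic ribosomal protein genes had a promoter peak at 73 of 76 genes, with a low-GC peak at 7 of the 73 (9.59%, 4.72 to 18.5%). These were Rps26, Rpl4, Rps27, Rpl24 (pileup 14.8), Rpl23a (14.6), Rpl3 (14.2) and Rps9 (12.3). Their median pileup of 14.8 was above that of the members and under that of the 64 high-GC peaks of the family (19.9). Their median fold enrichment was 5.95, against 5.40 in those 64, and all 7 met the stricter limits. Mitochondrial ribosomal protein genes had 3 low-GC peaks among 75 genes with a promoter peak (4.0%, 1.37 to 11.1%, which includes the 2.77% of all genes), at Mrps31 (14.0), Mrps21 (12.9) and Mrpl45 (12.9).

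Zinc finger genes named Zfp, mostly repressors of transposable elements and other targets, had a low-GC peak at 13 of 270 genes with a promoter peak (4.81%, 2.84 to 8.06%). The strongest were Zfp146 (17.5), Zfp386 (15.6), Zfp608 (14.6) and Zfp273 (14.5), and the family's low-GC median was 13.2 against 16.9 in its 264 high-GC peaks. Zfp566, Zfp260 and Zfp146 lay together at chr7:30874691-30955145. Low-GC peaks were found at 2 of 59 chaperone genes with a promoter peak, Cct3 (14.5) and Dnajc24 (13.0), at 1 of 44 proteasome genes, Psmb1 (18.3), and at 1 of 166 solute carrier genes, Slc3a2 (16.3), the heavy chain of amino acid transporters. These shares (3.39%, 2.27% and 0.602%) had intervals that included the 2.77% of all genes.

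The dynein light chain genes Dynlt1a, Dynlt1b, Dynlt1e and Dynlt1f, tandem copies on chromosome 17, each had a low-GC peak. They were chosen here with their values in view. Pileups were 12.7, 18.4, 12.3 and 15.5, fold enrichments were 3.39 to 3.86 and control levels were 2.72 to 4.73. The Dynlt1e and Dynlt1f peaks shared 95.1% and 97.5% of their 150-base words with each other, and tags within shared words cannot be assigned to either. Their pileups were nevertheless within the range of the other members, although the stated processing kept uniquely mapped reads, and how such tags were placed was not tested.

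No low-GC peak was found at any gene of several lists of retinal and housekeeping genes, which at their size does not set them apart from the 2.77% of all genes with a promoter peak. These were eye field and retinal progenitor factors (10 of 15 genes with a promoter peak), neurogenic factors (9 of 16), immediate early and stress genes (14 of 20), cell cycle and replication genes (31 of 34), splicing factors (44 of 44), respiratory chain genes (79 of 88), translation factors (56 of 63) and small nuclear ribonucleoprotein genes (24 of 24). The upper 95% Wilson limits ran from 4.64% for the respiratory chain to 29.9% for the neurogenic factors, all above 2.77%. The lists are short, and members outside them, such as Mcm10, Orc5 and Pttg1, also act in replication or the cell cycle. Of the genes of ganglion cells and neurons, 13 of 29 had a promoter peak, and 2 of the 13 (15.4%, 4.33 to 42.2%), Elavl2 and Elavl4, had a low-GC one. Both were internal, did not meet the stricter limits and came in addition to the higher high-GC promoter peak of the same gene given above. Muller glia genes (6 of 13 with a promoter peak), horizontal and amacrine cell genes (4 of 12) and homeobox genes (6 of 65) had no low-GC peak. Over all 21281 genes 49.2% had a promoter peak, and the number was 1 of 17 photoreceptor, 1 of 12 pigment epithelium, 1 of 20 crystallin, 2 of 12 endothelial, 0 of 11 microglia and white blood cell and 0 of 11 red blood cell genes, and none of 1106 olfactory receptor genes had one.

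AT-rich promoters had a peak less often than the others, at a share that depended on the window. Of the 43976 distinct protein-coding TSSs of chromosomes 1 to 19, 13382 had under 50% GC in the 1000 bp around them, and 1066 of these (7.97%, 7.52 to 8.44%) had an H3K27ac peak within 500 bp. Of the 30594 others, 66.2% (65.7 to 66.7%) had one. TSSs of the same gene can share a peak and were counted separately, which the intervals do not take into account. With the first TSS of each gene, the shares were 6.76% and 66.4%. With a window of 2000 bp and peaks within 1000 bp of the TSS, the shares were 22.6% and 67.97%, and with a GC limit of 45% or 55% the AT-rich share was 2.91% or 19.3%. The share was 0.934% (0.655 to 1.33%) under 40% GC, 4.36% from 40 to 45%, 14.5% from 45 to 50%, 38.3% from 50 to 55% and 91.6% (90.4 to 92.6%) at 70% or more. Among the AT-rich TSSs, 31.6% (29.8 to 33.5%) of the 2523 with an island window had a peak, and 2.47% (2.19 to 2.78%) of the 10859 without. A TSS window and a peak can differ in composition, and of the 260 members 173 (66.5%) had under 50% GC in the 1000 bp around the TSS as well.

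**Figure D4:**
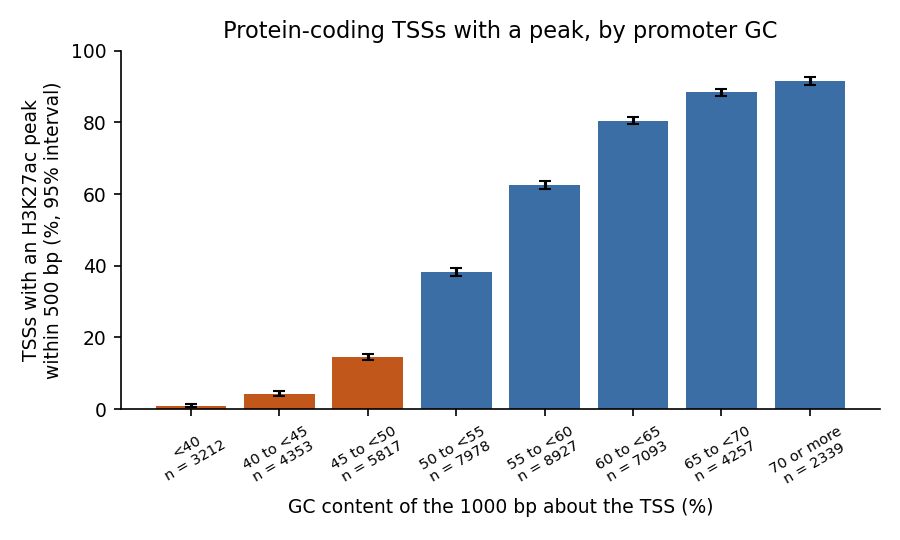
Share of protein-coding TSSs with an H3K27ac peak within 500 bp (%), by GC content of the 1000 bp around the TSS, with 95% Wilson intervals and the number of TSSs under each bar. Classes under 50% GC are orange and lie at 0.934%, 4.36% and 14.5%, and the class of 70% or more lies at 91.6%.

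Short motifs were searched from 250 bases before to 50 after each TSS on both strands. The cyclic AMP response element (CRE, TGACGTCA), bound by CREB and ATF factors, was found at 21 of 260 members (8.08%, 5.34 to 12.03%) and at 3.59% (3.23 to 3.98%) of high-GC promoter peaks, and in 2.14% of all protein-coding promoters. Among AT-rich promoters, the CRE was found in 4.60% (3.49 to 6.02%) of the 1066 with a peak and in 0.512% (0.400 to 0.654%) of the 12316 without. Nearby TSSs of a gene can hold the same site and were counted separately in these promoter shares. The 21 members with a CRE had pileups of 7.74 to 16.8 with a median of 13.9, against 11.96 in those without. The median fold enrichment was 4.18 with a CRE and 4.27 without. Of the 21, 19 were among the 192 members with an island window, whose median pileup was 13.1 against 9.97 in the 68 without. Among the motifs described below, the median was also higher with a YY1 site (14.25 against 12.08) and lower with an E-box (11.08 against 12.51). The part of the island window in the CRE difference was not tested. The CRE lay wholly upstream of the TSS in 19 of the 21 and began within 100 bases of it in 17. To let the surroundings be compared, 10 whose upstream DNA held no annotated exon are shown (38 bases, 5′ to 3′ on the strand of the gene, CRE in capitals).
Gemin6: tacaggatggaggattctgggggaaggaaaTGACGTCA
Tyw1: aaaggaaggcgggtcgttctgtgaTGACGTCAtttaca
Aptx: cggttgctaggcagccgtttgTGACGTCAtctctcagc
Zfp953: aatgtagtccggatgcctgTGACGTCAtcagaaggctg
Pop4: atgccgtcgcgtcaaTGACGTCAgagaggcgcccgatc
Ncald: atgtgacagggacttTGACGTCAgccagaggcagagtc
Hist1h4h: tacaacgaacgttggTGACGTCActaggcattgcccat
Mterf: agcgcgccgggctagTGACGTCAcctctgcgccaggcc
Tmem144: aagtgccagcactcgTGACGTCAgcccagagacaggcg
Ing4: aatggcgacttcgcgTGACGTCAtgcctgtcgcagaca
Their positions in mm9 were chr17:80623743-80623780 (Gemin6), chr5:130731451-130731488 (Tyw1), chr4:40650228-40650265 (Aptx), chr13:67461542-67461579 (Zfp953), chr7:39056383-39056420 (Pop4), chr15:37389138-37389175 (Ncald), chr13:23622828-23622865 (Hist1h4h), chr5:3893962-3893999 (Mterf), chr3:79646653-79646690 (Tmem144) and chr6:124989601-124989638 (Ing4). The CRE began 8 bases before the TSS in Gemin6, a component of the SMN complex, 14 in Tyw1, an enzyme of transfer RNA modification, and 17 in Aptx, a DNA repair protein. It began 76 bases before the TSS in Hist1h4h, a histone H4 gene, and 162 in Ing4, a reader of methylated histone H3.

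The shares of the other motifs differed to different degrees between the members and the high-GC peaks. The GC box (GGGCGG), bound by Sp factors, was found at 33.8% (28.4 to 39.8%) of members and 72.9% of high-GC peaks, and in 44.5% of all promoters. The ETS site (CCGGAA) was found at 28.1% (23.0 to 33.8%) and 29.4% (28.5 to 30.4%), with overlapping intervals, and in 17.9% of all promoters. The CCAAT box (CCAAT), bound by NF-Y, was found at 43.1% (37.2 to 49.2%) and 34.8%, and in 35.3% of all promoters. The AT-only homeodomain letters TAATTA were found at 20 members (7.69%, 5.03 to 11.6%) and 1.38% of high-GC peaks, and in 4.196% of all promoters. Among AT-rich promoters, TAATTA was about as frequent with a peak (10.8%, 9.06 to 12.8%) as without (9.74%, 9.22 to 10.3%), whereas the GC box (25.3% against 5.14%) and the ETS site (21.3% against 4.53%) were several times more frequent with a peak. A CCAAT box differed little (41.5% against 38.2%). The letters of the SOX site (ACAATG) and the AP-1 site (TGANTCA) were less frequent with a peak (12.4% against 18.7%, and 6.57% against 11.2%), and those of the YY1 site (ATGGCGG) more frequent (4.78% against 0.958%). They were found in 10.2%, 6.44% and 5.56% of all promoters. The E-box (CAGCTG) and the octamer (ATGCAAAT), at 17.3% (13.2 to 22.4%) and 2.31% (1.06 to 4.94%) of members, were in 16.1% and 1.496% of all promoters. AT-rich promoters with a peak also had more GC (median 47.6% against 43.8%) and a higher CpG ratio (0.514 against 0.199), and the part of composition in the motif shares was not tested.

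**Figure D5:**
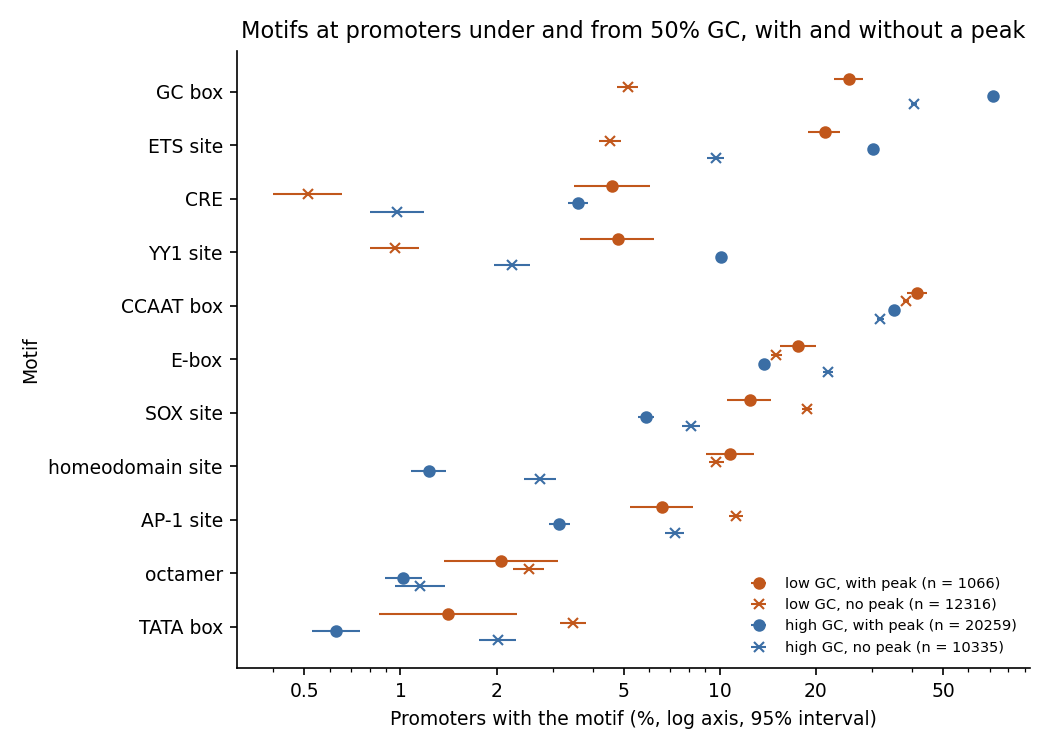
Share of protein-coding promoters with each motif (%, log axis, 95% Wilson intervals) for promoters under 50% GC (orange) and of 50% GC or more (blue), with a peak within 500 bp (circles) or without (crosses). In AT-rich promoters the CRE is at 4.60% with a peak and 0.512% without, whereas the homeodomain letters are at 10.8% and 9.74%.

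A TATA box (TATAAA within 45 to 15 bases before the TSS) was rare, at 4 members (1.54%, 0.60 to 3.89%) and 0.679% of high-GC peaks, and in 1.77% of all promoters. With the shorter letters TATAA the share of members was 3.85%. The members with TATAAA were Hist3h2ba (pileup 16.9), Dnajc24 (13.0), Taf13 (13.0) and Elavl2 (7.48). In AT-rich promoters it was found in 1.41% with a peak and 3.47% without. The 60 bases before the TSS of the 2 that had no annotated exon there show the box in capitals.
Hist3h2ba: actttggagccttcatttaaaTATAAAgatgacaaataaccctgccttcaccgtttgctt
Dnajc24: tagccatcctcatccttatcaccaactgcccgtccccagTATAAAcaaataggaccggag
They lay at chr11:58762353-58762412 and chr2:105843707-105843766. The stretch held 36.7% GC in Hist3h2ba, a histone H2B gene, and 50% in Dnajc24, a chaperone cofactor. None of the GC box, ETS site, CCAAT box, CRE or TATA box was found at 68 members (26.2%), against 11.2% of high-GC peaks.

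In position the members resembled other promoter peaks with a wider scatter. The midpoint lay downstream of the TSS in 181 of 260 (69.6%, 63.8 to 74.9%) and in 73.4% of high-GC peaks, with median offsets of 114.5 bp and 120 bp into the gene. The peak covered the TSS in 205 members (78.8%, 73.5 to 83.4%) and in 87.5% (86.8 to 88.1%) of high-GC peaks. Coverage was 87.0% (81.5 to 91.0%) in members with an island window and 55.9% (44.1 to 67.1%) in those without. The TSS of another gene lay upstream on the opposite strand within 1000 bp in 9.23% (6.28 to 13.4%) and 9.19% (8.62 to 9.79%). Genes without introns made up 4.23% (2.38 to 7.42%) and 2.30%. By chromosome, the share of promoter peaks that were low-GC ran from 1.35% (0.656 to 2.76%) on chromosome 8 to 5.39% (3.52 to 8.18%) on chromosome 13, where 8 of the 20 members were histone peaks.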

How the data were processed

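H3K27ac chromatin of E14 retinas was immunoprecipitated with an isotype control. Bowtie2 alignments to mm9, limited to reads that map uniquely according to the methods of the authors, were pooled over 2 replicate libraries. Broad regions were then called against 1 control library at a broad cutoff of 0.1, in MACS version 2.1.0.20140616, with duplicates at a position reduced to 1 tag. Per the file header, 113543038 ChIP and 9210563 control tags were left after filtering, of 159237447 and 27735759. At this shallower control depth low control values are coarse. The deposited pileup is a signal (mean fragment coverage over a region, with the larger library scaled towards the smaller). The deposited fold enrichment is a ratio to the local control, and the deposited -log10 p and -log10 q values are region means. The peak length in bp, as the authors' file gives it, was used unchanged.

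From these, the GC content and CpG ratio of each peak were computed on the NCBIM37 (mm9) genome, and midpoints were assigned to the nearest protein-coding TSS of GENCODE vM1. The control level was taken as (pileup + 1) / fold enrichment - 1, since MACS2 adds 1 to both. An island window held at least 50% GC and a CpG ratio of at least 0.6 over 200 bp. Shares have 95% Wilson intervals and medians have 95% order-statistic intervals. With 1 pooled list no test was run. Repeat content was not used here, and the values of 1 member are not reported here. Named genes were the 5 longest, 5 highest in pileup, 5 highest in fold enrichment and 5 lowest in GC, the 3 on each side of the limit and up to 4 per gene list by pileup. Other named genes were chosen after their values were seen. They included further members of the lists, the lowest in pileup, holders of a motif, pairs within genes, Dynlt1 copies and members outside the lists. The members and lists were chosen with earlier results of these data known. Functions were tested on simulated data. The work was done in Python 3.11.15 with pandas 2.3.3, numpy 2.4.6, matplotlib 3.10.9 and scipy 1.17.1. Alternatives changed the GC limit, the distance and kind of TSS, the DNA used for GC content, the peak limits, the peak length, the merging of neighbours and the chromosomes. The other 13 samples were not analysed here, and 1 of them has labels that disagree on its age.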

Additional observations from a re-analysis of the deposited data

How the results depend on the processing

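The number of low-GC promoter peaks was 49 at a GC limit of 45%, 1363 at 55% and 148 with only peaks at the stricter limits, and it was 198 to 360 under the other 8 alternatives. Their share of promoter peaks was 0.506% at 45%, 14.1% at 55%, 3.72% with GC content taken from 1000 bp around the midpoint, 2.24% with the first TSS of each gene and 2.05% at the stricter limits. The pileup of low-GC peaks was lower under all 16 alternatives. The ratio moved to 0.645 at 45%, 0.818 at 55%, 0.772 with the first TSS of each gene or with only peaks at a first TSS, 0.782 in peaks with an island window and 0.926 in those without. The fold enrichment ratio moved to 0.956 at 55%, 0.970 at the stricter limits and 0.964 with an island window, and it turned to 1.04 in peaks without one. The length ratio was 0.816 at 45%, 1.09 at 55%, 0.794 with GC content from 1000 bp, 1.09 in peaks that overlap a TSS, 1.08 at the stricter limits and 1.33 without an island window, so its direction depended on these choices. The causes were not tested.

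The share of low-GC peaks at the stricter limits was 69.6% at a limit of 55% GC, 66.4% in peaks that overlap a TSS and 28.1% with a fold enrichment of at least 5. The first stands beside 74.6% of all promoter peaks, a share that does not depend on the GC limit. For the other alternatives no share of all promoter peaks was computed, so they do not compare the members with other peaks. The share of AT-rich promoters with a peak was 5.82% in a window of 500 bp, 22.6% in one of 2000 bp, 2.91% at 45% GC, 19.3% at 55%, 4.90% with peaks at the stricter limits and 6.76% with the first TSS of each gene, and under each it was lower than that of the other promoters (51.2% to 76.1%). An island window was found in 34.6% of members with windows of 500 bp, 55% GC and a ratio of 0.65, and in 87.8% of members at the stricter limits. The share with a TATA box was 3.85% with TATAA and 1.52% with the first TSS of each gene, against 1.54%. Merging peaks within 1000 bp joined none. The splits of the length, pileup and fold enrichment ratios into peaks at a first or an internal TSS, peaks with or without an island window and peaks without histone genes were chosen after seeing the data.

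No paired analysis was possible because the 2 replicate libraries were pooled in 1 peak list, which also left no replicate to leave out. The peaks of a list called at a cutoff hold no weaker regions, so a region of low coverage can be missing. The control depth of 9210563 tags limits fold enrichment at low control levels.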

Other observations

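Chromosome X was left out of the counts above. It had 17 low-GC peaks among 314 promoter peaks. Their pileups ran from 6.91 at Gpm6b, a relative of Gpm6a, to 13.3 at Huwe1, a ubiquitin ligase whose peak of 3622 bp was the longest of the 17. Ribosomal protein genes were present here as well, with Rps4x at 11.7 and Rpl10 at 11.03, over fold enrichments of 5.73 and 3.98. The study used mice of either sex, and the number of copies of the X in the pooled chromatin was not tested.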
